A study of Homo sapiens with 4 samples.

Results

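The 10 genes described here encode the parts of the desmosome: the desmosomal cadherins DSG2, DSG3, DSC2 and DSC3, the plaque proteins JUP, PKP1, PKP2, PKP3 and DSP, and the membrane protein PERP. They were taken as the rows whose gene name was one of these 10, from the 58735 genes listed in each of the 2 deposited expression tables. That rule reads gene names and no expression value, though the 10 were chosen with earlier results of these data known. RNA-seq had been carried out in HaCaT cells, an immortalised human keratinocyte line, after transfection with 200 pmol of siRNA by lipofectamine 3000 in six-well plates. The siControl group, labelled WT, received normal control siRNA, and the siALKBH5 group, labelled ALKBH5 knockdown, received siRNA against ALKBH5, an enzyme that removes N6-methyladenosine (m6A) from RNA. Each group had 2 libraries, so 4 libraries were compared. All 4 came from the same line grown in serum-containing DMEM, and the labels do not give the siRNA sequence used, the time after transfection, or whether the 2 libraries of a group were separate cultures. The p-values therefore measure only the spread between these libraries, which may be technical.

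Desmosomes are spot-like junctions that bind neighbouring epithelial cells and anchor their keratin filaments. Desmogleins and desmocollins cross the membrane and adhere to the cadherins of the next cell, while plakoglobin and the plakophilins bind their cytoplasmic tails and desmoplakin links this plaque to keratin. In epidermis the cadherin and plakophilin paralogs are used in different layers, and keratinocytes remodel these junctions when they migrate into a wound, the process the study addressed.

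For ALKBH5 itself the siControl libraries held 1512 and 1576 counts, and those of siALKBH5 held 956 and 816. Its level fell from 90.7 ± 4.42 to 50.4 ± 1.13 CPM (counts relative to the TMM-scaled library size, SD, n = 2), a log2 fold change of -0.85 (SE 0.05, adjusted p = 6.4e-15). Library totals lay between 16017502 and 18837807 counts, of which mitochondrial genes took 10.2% in each siControl library against 9.63% and 9.64% in siALKBH5. The keratinocyte label was checked against 7 basal markers, all of which were detected, with a summed level of 15774 to 16114 CPM in siControl and 21002 in both siALKBH5 libraries. KRT5 and KRT14 rose and TP63, ITGA6 and ITGB4 fell. Of 5 suprabasal markers KRT1 rose while KRT10, IVL and FLG fell, and the summed level was 1687 to 1693 CPM against 1655 to 1689 CPM. Fibroblast markers summed to 21.9 to 22.8 CPM against 18.7 to 19.1 CPM, with COL1A2 and PDGFRA at 0 in every library and DCN and LUM called lower. The 5 melanocyte markers reached at most 3.95 CPM in sum with TYR at 0, the 5 leukocyte markers at most 6.59 CPM with CD14 called higher, and the 4 endothelial markers 32.5 CPM in both siControl libraries against 35.0 to 35.5 CPM with KDR at 0, CDH5 called lower and VWF higher. The part of these shifts in the results below was not tested.

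All 10 components were expressed and all 10 passed the filter on low counts. After ALKBH5 knockdown 6 of them rose (DSC2, DSP, JUP, PKP1, PKP2 and PKP3), 2 fell (DSG2 and PERP), and DSG3 and DSC3 were not called (edgeR quasi-likelihood test, adjusted p under 0.05 over 15075 genes). Over all genes tested 19.3% were called higher and 17.3% lower. Every change was small: the largest was 0.41 on the log2 scale, in PKP2, and the median over the 10 genes was 0.09 beside -0.01 over all genes. The study's methods also ask for a change of 1 or more on the log2 scale beside the adjusted p. None of the 10 met that pair of thresholds, which 2.92% of all genes did. That count was 0 also at an unadjusted p under 0.05 and with DESeq2, whereas 8 of the 10 had an unadjusted p under 0.05 at any size. In bulk samples a change in the share of cells that express a gene and a change in RNA per cell cannot be told apart.

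The libraries of a group lay close together, though for the 2 uncalled genes, DSG3 and DSC3, the change was of about the size of the gap between replicates. For all 10 genes the siControl and siALKBH5 libraries did not overlap in CPM, which held for 66.3% of all genes tested. The direction was then bound to be the same in both deposited tables, so that agreement adds no support. The components are abundant, with 512 to 43348 counts per library, and abundant genes were called more often. Among 4886 genes with a mean level of 39.0 to 2226 CPM, the range that the components span, 32.8% were called higher and 25.2% lower. Their median size of change was 0.14 on the log2 scale beside 0.16 for the components. With the sign kept, their median was 0.02 beside 0.09 for the components.

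**Figure D1:**
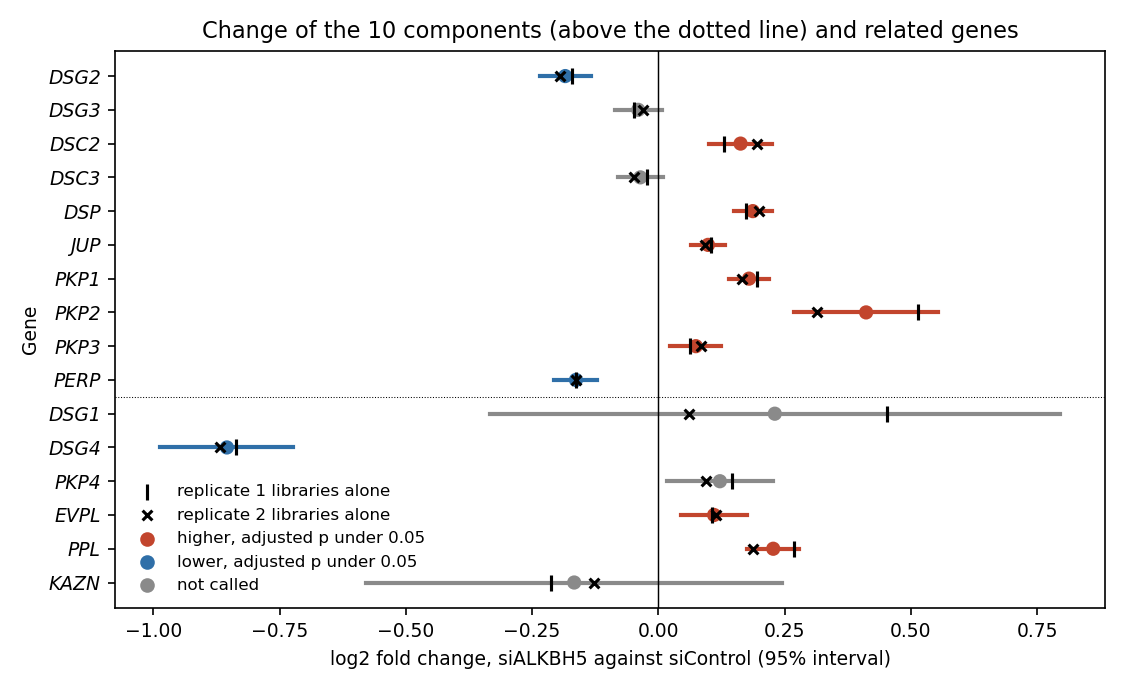
Log2 fold change of siALKBH5 against siControl (horizontal axis) for the 10 desmosome components and 6 related genes, with bars for the 95% interval and colours for the call. Bars and crosses in black give the change within the replicate 1 and the replicate 2 libraries. Both lie on the same side of 0 for each of the 10 components, which follows from the groups not overlapping. DSG4 fell the furthest, by 0.85.

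To compare genes with one another, CPM was divided by the listed gene length in kilobases. On this scale JUP was the highest in siControl, at 435 ± 2.95 CPM per kb (SD, n = 2), and held 31.95% of the summed level of the 10 genes. PERP followed at 191 ± 1.08, then PKP1 at 171 ± 3.33, DSP at 121 ± 0.0359 and PKP3 at 118 ± 2.33 CPM per kb. DSC3 (109 ± 2.38) and DSG3 (108 ± 0.698) overlapped in both groups and could not be ranked. DSG2 stood at 85.5 ± 2.21, DSC2 at 18.4 ± 0.519 and PKP2 at 4.75 ± 0.342 CPM per kb, so that JUP was 91.5 times as high as PKP2. In siALKBH5 the order was the same except that PKP1, at 193 ± 1.02, passed PERP, at 171 ± 0.911 CPM per kb. With the length of the principal GENCODE transcript in place of the listed length, PKP1 stood above PERP and PKP3 above DSP in siControl too. The listed length joins all exons of a gene, so these 2 orderings depend on the length used. So do the per-length shares and ratios given here and below. By transcript length JUP stood at 615 and PKP2 at 7.78 CPM per kb in siControl.

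**Figure D2:**
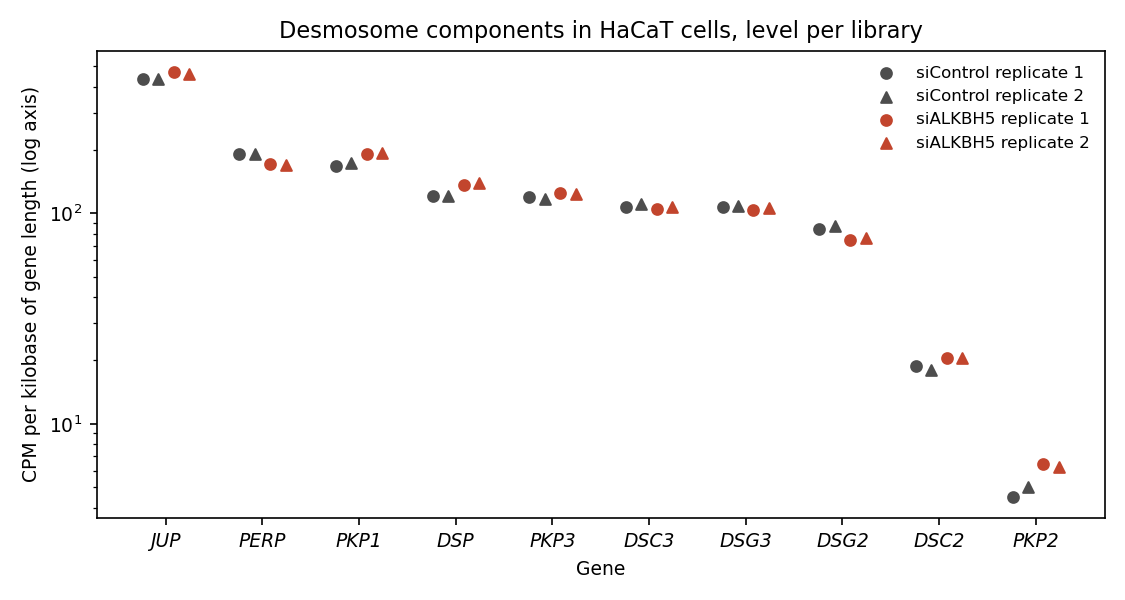
Level of each component in each of the 4 libraries, in CPM per kilobase of listed gene length on a log axis, with the genes ordered by their siControl mean. Grey marks siControl and red siALKBH5, with circles for replicate 1 and triangles for replicate 2. The 2 libraries of a group lie close together, JUP is at the top with 433 to 470 CPM per kb and PKP2 at the bottom with 4.51 to 6.45.

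DSG2 (ENSG00000046604, chromosome 18, 31498043 to 31549008) encodes desmoglein 2, the desmoglein of simple epithelia and of basal or proliferating keratinocytes. Its level was 519.7 and 539 CPM in siControl and 461 and 471 CPM in siALKBH5. Both knockdown libraries lay below both controls, and DSG2 fell from 529 ± 13.7 to 466 ± 6.68 CPM (SD, n = 2), a log2 fold change of -0.18 (SE 0.02, adjusted p = 2.6e-07). The call held under all 11 alternatives, with values from -0.21 to -0.16. DSG3 (ENSG00000134757, chromosome 18, 31447795 to 31478702) encodes desmoglein 3, the basal epidermal desmoglein and the autoantigen of pemphigus vulgaris. It measured 595 and 601 CPM in siControl and 576 and 588 CPM in siALKBH5. Although the groups did not overlap, the fitted change of -0.04 (SE 0.02, 95% interval -0.09 to 0.01) was not called at an adjusted p of 0.18. Scaled by library size only, without TMM, it was called lower (-0.06, adjusted p = 0.030).

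The other desmogleins are not among the 10. DSG4 (ENSG00000175065), which is best known from hair, was counted 912 and 1066 times in siControl against 592 and 534 times in siALKBH5. It fell from 57.9 to 32.1 CPM, a log2 fold change of -0.85 (SE 0.06, adjusted p = 8.9e-13), a larger fitted drop than that of any of the 10 components. DSG1, the desmoglein of the upper epidermis, was counted only 29 and 44 times in siControl against 46 and 42 times in siALKBH5, and its change of 0.23 (SE 0.28, adjusted p = 0.56) could not be resolved at this depth. Summed per length, the 4 desmogleins stood at 204 and 209 CPM per kb in siControl and at 186 and 190 in siALKBH5. DSG3 made up 52.4% of that sum in siControl and 56.0% in siALKBH5, DSG2 41.4% and 40.1%, and DSG4 5.97% and 3.63%. The ratio of DSG2 to DSG3 within a library, which no scaling between libraries affects, was lower in both knockdown libraries, by 0.14 on the log2 scale against a gap of 0.04 between the siControl libraries.

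DSC2 (ENSG00000134755, chromosome 18, 31058840 to 31102522) encodes desmocollin 2, the most widely expressed desmocollin. The siControl libraries had 234 and 225 CPM and the siALKBH5 libraries 256 and 258 CPM. DSC2 thus lay higher in both knockdown libraries and rose from 229.5 ± 6.49 to 257 ± 1.14 CPM, a log2 fold change of 0.16 (SE 0.03, adjusted p = 6.6e-05). DSC3 (ENSG00000134762, chromosome 18, 30990008 to 31042815) encodes desmocollin 3, the basal epidermal form. It stood at 755 and 779 CPM in siControl and 743 and 754 CPM in siALKBH5, a narrow separation of the groups. Its change of -0.04 (SE 0.02, 95% interval -0.08 to 0.01) was not called (adjusted p = 0.21), but with scaling by library size only it was called lower (-0.06, adjusted p = 0.036). DSC1, the desmocollin of differentiated layers, had 4, 0, 7 and 14 counts and was not tested.

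The summed desmocollin level per length was 126 and 128 CPM per kb in siControl and also 126 and 128 in siALKBH5, so the sum covered the same range in both groups. Within it the share of DSC2 was 14.89% and 14.02% in siControl and 16.3% and 16.2% in siALKBH5. The log2 ratio of DSC2 to DSC3 was higher by 0.20 in siALKBH5, beside a gap of 0.10 between the siControl libraries. This ratio was bound to separate the groups, since DSC2 lay higher and DSC3 lower without overlap, and it adds no support. A permutation test of a ratio could not reach 0.05, since 4 libraries can be divided into equal groups in 3 ways, and none was made.

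Since ratios of these paralogs are given, their sequences bear on how well reads separate them. Whether the paralogs moved apart was not tested, and DSG3 and DSC3 were not called. The coding sequences of DSC2 and DSC3 were 74.3% identical over 2678 aligned bases, against 67.4% for DSG2 and DSG3, and the longest run that DSC2 and DSC3 share without a difference was 80 bases. No exact stretch of 50 bases or more was shared by any other pair of the 10 components. Counting all other genes, such stretches covered 214 of the 12325 bases of DSC2 (52 other genes, 80 bases with DSC3) and 293 of the 6939 bases of DSC3 (222 other genes). They covered 328 of the 5831 bases of DSG2, 314 of 5525 in DSG3 and 210 of 4290 in PERP, and none of DSP, JUP, PKP1 or PKP3. The run lies in exon 15 of 16 of each gene, at chr18:31068910-31068989 in DSC2 and chr18:30996807-30996886 in DSC3 (GRCh38, minus strand, coding exon of the GENCODE 29 transcript). It is shown because a read lying wholly inside it could come from either gene.
DSC2 and DSC3 shared run: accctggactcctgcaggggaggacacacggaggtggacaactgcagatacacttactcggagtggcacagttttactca
Elsewhere the genes can be told apart, as in the last 90 coding bases with the stop codon, in exon 16 of each gene (chr18:31068015-31068104 for DSC2 and chr18:30994175-30994264 for DSC3, minus strand). Capitals mark the 15 bases that differ, beside 75 that are the same.
DSC2 coding end: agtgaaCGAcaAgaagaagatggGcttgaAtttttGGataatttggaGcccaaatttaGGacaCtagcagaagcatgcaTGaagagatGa
DSC3 coding end: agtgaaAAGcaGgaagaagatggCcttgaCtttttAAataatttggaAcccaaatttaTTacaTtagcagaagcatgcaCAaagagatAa

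The 4 cadherins among the components lie together on chromosome 18, in a cluster of 559 kb (GRCh38, 30990008 to 31549008) that also holds DSC1, DSG1 and DSG4. The desmocollins are transcribed from the minus strand and the desmogleins from the plus strand. DSC2 rose next to DSC3, which was not called (-0.04). The adjacent DSG4, DSG3 and DSG2 all had negative values, -0.85, -0.04 and -0.18, of which that of DSG3 was not called. Of 14 genes listed in the cluster, 7 reached 10 counts in any library, the 7 cadherin genes themselves. The library preparation does not mark the strand, so reads from an antisense gene could not be told from those of its partner. The antisense gene DSG2-AS1, which shares 171 of the 6190 exon bases of DSG2, had at most 9 counts, and DSCAS, which overlaps the span of DSC2 but none of its exons, at most 6.

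**Figure D3:**
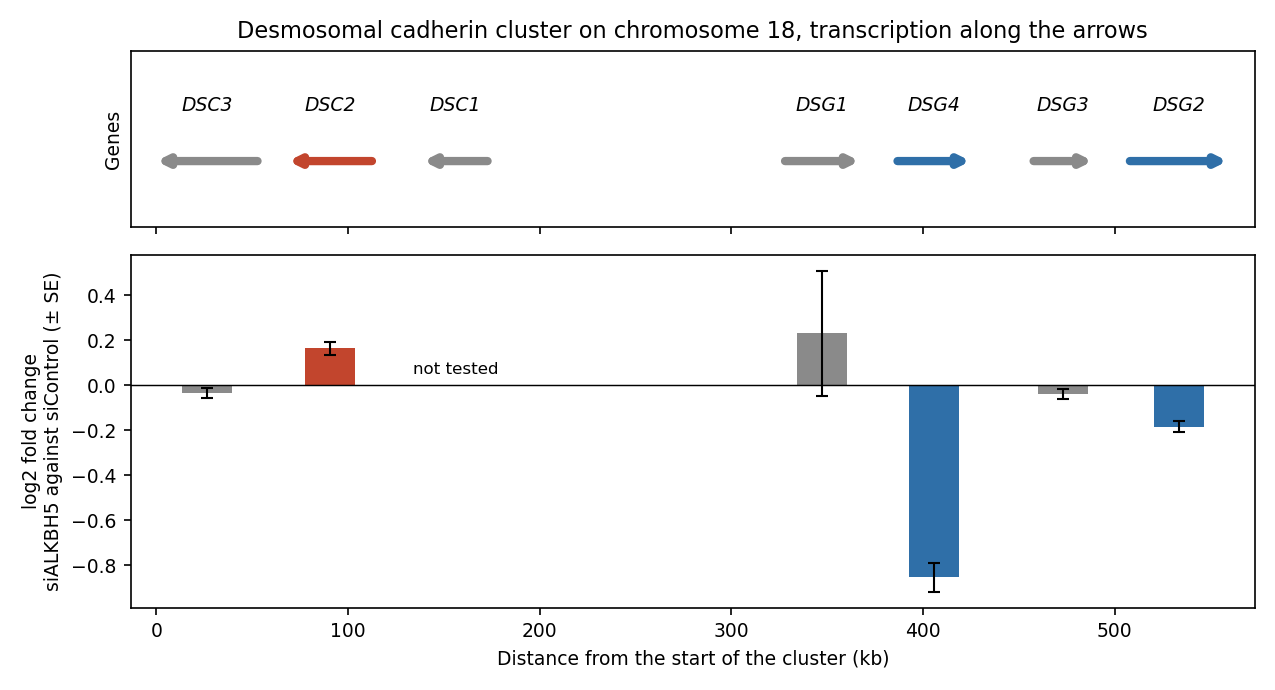
The desmosomal cadherin cluster, with distance from its start in kb on the horizontal axis. Arrows above give the extent and direction of the 7 cadherin genes and bars below their log2 fold change with SE, in red for called higher, blue for called lower and grey for not called. DSC2 is the only gene called higher, DSG4 and DSG2 are called lower, and DSC1 was not tested.

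JUP (ENSG00000173801, chromosome 17, 41754604 to 41786931) encodes plakoglobin, the armadillo protein that binds cadherin tails in both desmosomes and adherens junctions. It was the most abundant of the 10 genes, with 2160.2 and 2139.6 CPM in siControl and 2321 and 2282 CPM in siALKBH5. The knockdown libraries were both above the controls, and JUP rose from 2149.9 ± 14.6 to 2301 ± 27.5 CPM, a log2 fold change of 0.10 (SE 0.02, adjusted p = 1.2e-05). Beta-catenin, CTNNB1, the homologue of plakoglobin in adherens junctions, changed by -0.03 (SE 0.04, adjusted p = 0.49) and was not called. The per-length ratio of JUP to CTNNB1 was 30.6 and 28.8 in siControl and 32.4 and 32.6 in siALKBH5, and this difference in ratio was not tested.

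PKP1 (ENSG00000081277, chromosome 1, 201283452 to 201332993) encodes plakophilin 1, which clusters desmosomal cadherins and recruits desmoplakin in stratified epithelia. Its level was 1045 and 1074 CPM in siControl and 1195 and 1204 CPM in siALKBH5. PKP1 lay higher in both knockdown libraries and rose from 1059 ± 20.7 to 1199.95 ± 6.36 CPM, a log2 fold change of 0.18 (SE 0.02, adjusted p = 4.1e-09). PKP3 (ENSG00000184363, chromosome 11, 392614 to 404908) encodes plakophilin 3, which binds the widest set of desmosomal proteins among the plakophilins. It measured 453 and 441 CPM in siControl and 473 and 468 CPM in siALKBH5, again without overlap. The log2 fold change of 0.07 (SE 0.02, adjusted p = 0.017) was the weakest call among the 10. It was lost without siControl replicate 2 (0.05, adjusted p = 0.22), without siALKBH5 replicate 1 (0.07, adjusted p = 0.091) and with scaling by library size only (0.05, adjusted p = 0.098).

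PKP2 (ENSG00000057294, chromosome 12, 32790745 to 32896840) encodes plakophilin 2, the plakophilin of heart and simple epithelia. It was the least abundant component and had the largest fold change, at 512 and 633 counts in siControl against 848 and 720 with the knockdown. On the CPM scale these are 31.8 and 35.2 against 45.4 and 43.8, so that both knockdown libraries exceeded both controls. PKP2 rose by 33.1% in mean level, a log2 fold change of 0.41 (SE 0.07, adjusted p = 1.6e-05). The size of that change was the least certain of the 10: it was 0.51 within the replicate 1 libraries and 0.31 within the replicate 2 libraries. Of its 4302-base transcript, 792 bases (18.4%) lie in exact stretches of 50 bases or more shared with the processed pseudogene AC005840.3 on the same chromosome, which itself had 0 counts in 3 libraries and 2 counts in siALKBH5 replicate 1. How reads matching both were counted is not given in the sources used here, so the level of PKP2 is uncertain to that extent.

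Plakophilin 1 and plakophilin 3 made up nearly all of the plakophilin level. The summed level of the 3 genes was 292 and 294 CPM per kb in siControl and 324 in both siALKBH5 libraries. PKP1 held 58.1% of it in siControl and 59.7% in siALKBH5, PKP3 40.2% and 38.4%, and PKP2 1.62% and 1.95%. These shares depend on the length used: by transcript length PKP1 stood at 197 and PKP3 at 159 CPM per kb in siControl. The ratio of PKP1 to PKP3 was higher by 0.11 on the log2 scale in siALKBH5, beside a gap of 0.08 between the siControl libraries, and that of PKP2 to PKP1 by 0.23 beside a gap of 0.11. CTNND1, the p120 catenin that is related to the plakophilins and binds classical cadherins, changed by 0.02 (SE 0.02, adjusted p = 0.43) and was not called.

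DSP (ENSG00000096696, chromosome 6, 7541575 to 7586717) encodes desmoplakin, the plakin that ties the plaque to keratin filaments. The siControl libraries gave 1220.4 and 1219.9 CPM and the siALKBH5 libraries 1377 and 1401 CPM. DSP rose by 13.8% in mean level, a log2 fold change of 0.19 (SE 0.02, adjusted p = 4.9e-10), and its adjusted p was the lowest of the 10. The call held under all 11 alternatives, with values from 0.16 to 0.20. PERP (ENSG00000112378, chromosome 6, 138088505 to 138107511) encodes a small tetraspan membrane protein of desmosomes and a target of p53 and p63. It had 825 and 818 CPM in siControl and 736 and 731 CPM in siALKBH5. PERP fell by 10.7% in mean level, a log2 fold change of -0.16 (SE 0.02, adjusted p = 1.1e-07), with values from -0.19 to -0.15 under the alternatives.

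The opposite directions show in ratios taken within each library. The log2 ratio of DSP to DSG2 counts was 1.23 and 1.18 in siControl and 1.58 and 1.57 in siALKBH5, higher by 0.37. The ratio of PERP to DSP was lower by 0.35, from -0.57 and -0.58 to -0.90 and -0.94. DSP against JUP, where both genes rose, was higher by 0.09, from -0.82 and -0.81 to -0.75 and -0.70. Each of these ratios separated the 2 groups. For DSP to DSG2 and PERP to DSP this had to be so, since the genes moved in opposite directions without overlap, and it adds no support. Over the 10 genes the summed level per length was 1360.1 and 1363 CPM per kb in siControl and 1406 and 1404 in siALKBH5.

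**Figure D4:**
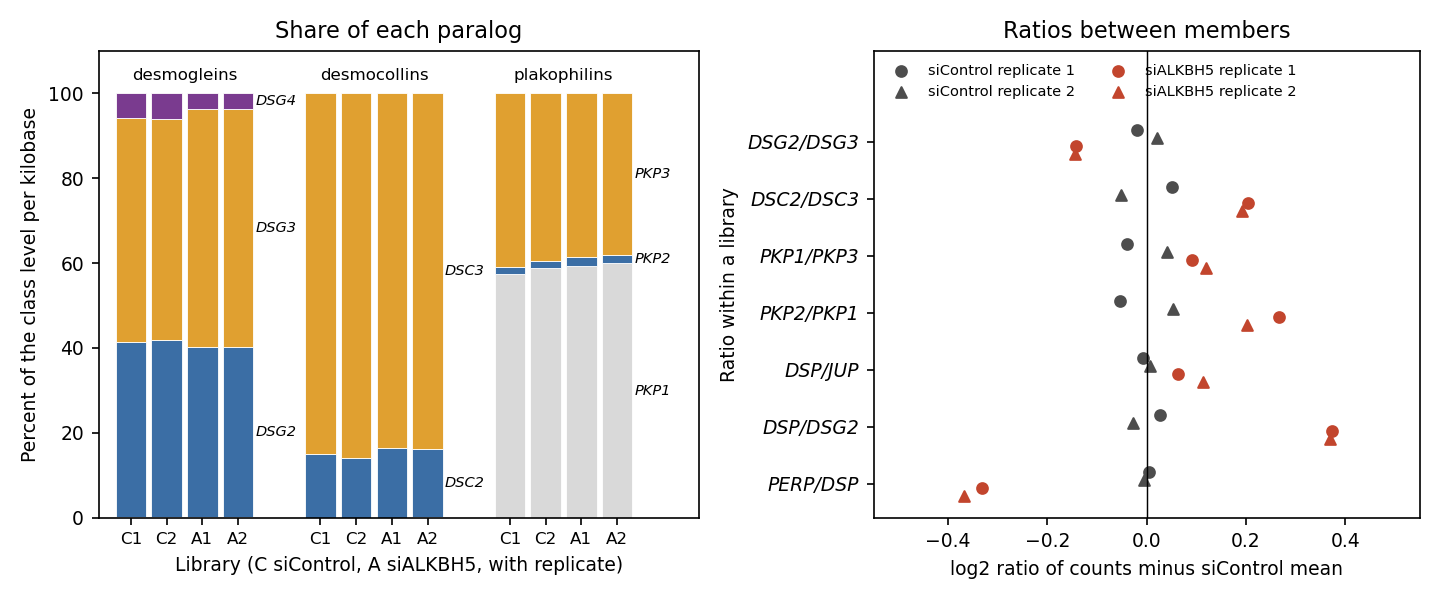
Left, the share of each paralog in the summed CPM per kb of its class, in percent, for each of the 4 libraries (DSG1 and DSC1, each under 1%, are not labelled). Right, log2 ratios of counts between pairs of components within a library, minus the siControl mean, with grey for siControl and red for siALKBH5. DSG4 shrinks from 5.97% to 3.63% of the desmogleins, and DSP against DSG2 moves up by 0.37 in the knockdown libraries.

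Upstream sequence was examined for the components that moved. RefSeq promoter windows of 250 bases before to 50 bases after the start (GRCh38.p14) matched 8 of the 10 genes, all but PKP2 and PKP3, and the first listed window of each gene was searched on both strands. The stretches shown are 100 bases that end before both the RefSeq and the GENCODE start. They are those of DSP and DSC2, which rose, and of DSG2 and PERP, which fell. The stretch of PKP1, which also rose, held none of the motifs searched and is not shown. The stretches shown lie upstream of the transcript at chr6:7541475-7541574 (plus strand), chr18:31102523-31102622 (minus strand), chr18:31497943-31498042 (plus strand) and chr6:138107512-138107611 (minus strand). Capitals mark GC boxes (GGGCGG), E-boxes (CACCTG, bound by SNAI and ZEB factors) and an AP-1 site (TGANTCA), on either strand.
DSP upstream: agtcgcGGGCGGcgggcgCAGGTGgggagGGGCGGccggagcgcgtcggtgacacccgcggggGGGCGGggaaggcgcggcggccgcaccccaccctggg
DSC2 upstream: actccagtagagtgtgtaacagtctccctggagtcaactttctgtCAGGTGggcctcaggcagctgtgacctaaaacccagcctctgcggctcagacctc
DSG2 upstream: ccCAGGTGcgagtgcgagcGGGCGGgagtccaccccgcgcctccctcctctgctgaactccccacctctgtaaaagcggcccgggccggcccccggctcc
PERP upstream: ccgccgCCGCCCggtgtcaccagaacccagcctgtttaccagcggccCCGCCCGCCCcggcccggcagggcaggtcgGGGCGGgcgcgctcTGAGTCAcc

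In the full windows the GC box occurred in 6 of 8 components (PKP1, DSP, PERP, JUP, DSC2 and DSG2), against 44.6% of 27305 genes with a promoter in the table. The E-box occurred in 3, DSP, DSC2 and DSG2, of which the first 2 rose and the last fell, against 20.6% of all genes. PERP alone held an AP-1 site (7.76% of all), JUP and DSC3 held a CCAAT box (CCAAT, 35.7%), and DSC3 and DSG3 a p53 family half-site (6.54%). Neither the TATA box (TATAAA, 11.95% of all) nor the Grainyhead-like site (AACNGGTT, 1.73%) occurred in any of the 8. No match of one motif shared a base with a match of another, and 2 pairs of GC boxes overlapped each other. A match is a string of letters and no evidence of binding. In the first listed windows of these 8 genes, those that rose and those that fell were not separated by any of these motifs.

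ALKBH5 acts on m6A, which is placed within a short consensus of which GGACT is the most typical form, so the principal GENCODE 29 transcripts were searched for GGACT. This search was chosen after the expression values had been seen. Of the 10 components 9 contained it, all but JUP, against 91.7% of 12499 tested protein-coding genes. The median over the 10 components was 0.800 matches per kb beside 0.939 over those genes. Within 200 bases of the stop codon it occurred in 4 of 10, DSG3, PKP2, PKP3 and PERP, against 37.6% of all. These 4 comprise 2 genes that rose, 1 that fell and 1 that was not called. The plakophilin ends are shown because they carry the motif inside the last 90 coding bases, in capitals, which no other component does. The PKP2 stretch spans exons 12 and 13 of 13 (chr12:32792644-32792664 and chr12:32792424-32792492, minus strand) and the PKP3 stretch exons 12 and 13 of 13 (chr11:404270-404323 and chr11:404534-404569, plus strand).
PKP2 coding end: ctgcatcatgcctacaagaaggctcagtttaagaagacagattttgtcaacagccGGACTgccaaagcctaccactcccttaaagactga
PKP3 coding end: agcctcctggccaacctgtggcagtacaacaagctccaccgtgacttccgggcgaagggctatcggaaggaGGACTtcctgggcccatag
Whether the A of either match is methylated was not measured in these libraries.

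Other genes of desmosomes and cornified junctions formed a list of 8, of which 6 were tested. Of these 2 rose, 1 fell (DSG4) and 3 were not called, with a median of 0.12 beside -0.01 over all genes. For this and the following lists, the shares over all genes tested were 19.3% called higher and 17.3% lower. Relatives of desmoplakin in the plakin family rose as well: PPL, periplakin, rose from 439 to 514 CPM (log2 fold change 0.23, SE 0.03, adjusted p = 5.5e-09), and EVPL, envoplakin, from 189.8 to 205 CPM (0.11, SE 0.03, adjusted p = 7.3e-03). The EVPL call was lost without siControl replicate 2 (adjusted p = 0.081) and without siALKBH5 replicate 1 (adjusted p = 0.053), and without siControl replicate 2 the list held 1 gene called higher. PKP4, a relative of the plakophilins, changed by 0.12 (adjusted p = 0.061) and KAZN, kazrin, by -0.17 (adjusted p = 0.56), and neither was called. CDSN, corneodesmosin of the cornified layer, had at most 4 counts and was not tested.

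Keratins form the filaments that desmosomes anchor. All 10 tested keratins were called, 7 higher and 3 lower, with a median of 0.21. Most of them are abundant, and abundant genes were called more often. The number called higher was 6 with DESeq2 and in each fit that left out 1 library, and the number called lower was 2 without siALKBH5 replicate 1. KRT5, the basal type II keratin, rose from 7034 to 11248 CPM (log2 fold change 0.68, SE 0.01, adjusted p = 1.4e-27), and KRT6A, a keratin of activated keratinocytes, rose by 0.63 (SE 0.02, adjusted p = 2.7e-22). KRT8 of simple epithelia rose by 0.50 and KRT1 of suprabasal cells by 0.27. KRT15, a basal type I keratin, fell from 15063 to 10811 CPM (-0.48, SE 0.01, adjusted p = 3.4e-26), while KRT10 fell by 0.29 and KRT17 by 0.08. Some keratin genes have near-identical relatives, so counts may be split between copies.

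Among 17 genes of desmosome assembly, transport and shedding 5 rose and 2 fell, a median of 0.06. ATP2A2, the calcium pump mutated in Darier disease, rose by 0.27 (adjusted p = 2.8e-08), MAPRE1, a microtubule end-binding protein, by 0.27 (adjusted p = 1.5e-06), ZDHHC5, a palmitoyltransferase, by 0.14 (adjusted p = 1.6e-03) and EGFR by 0.14 (adjusted p = 5.9e-06). ADAM10, a sheddase of cell surface proteins, fell by 0.19 (adjusted p = 2.7e-05) and ERBIN fell by 0.13 (adjusted p = 0.019). The number called lower in this list was 1 with DESeq2 (ADAM10), and 1 also without siControl replicate 2 and without siALKBH5 replicate 1.

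Of 16 transcription factors of epithelial junction genes 12 were tested, and 3 rose and 6 fell, a median of -0.10. OVOL2, an epithelial repressor of mesenchymal genes, fell by 0.34 (adjusted p = 4.1e-04), CEBPA by 0.22 (adjusted p = 0.015), GRHL3, a Grainyhead-like factor, by 0.22 (adjusted p = 0.024) and KLF5 by 0.16 (adjusted p = 3.2e-06). OVOL1 rose by 0.28 (adjusted p = 1.8e-03) and CEBPB by 0.19 (adjusted p = 5.5e-04). ZNF750, a differentiation factor, was called higher on few counts, 7 and 20 in siControl against 32 and 26 (1.06, SE 0.41, adjusted p = 0.043). SNAI1, ZEB1, ZEB2 and TWIST1, which repress epithelial genes, were too low to test. SNAI2, a further repressor in the list, was expressed at 31.7 CPM in siControl and 29.4 CPM in siALKBH5. Its change of -0.11 (SE 0.08, adjusted p = 0.27) was not called. The number called lower was 2 with DESeq2 (KLF5 and OVOL2), 2 also without siALKBH5 replicate 2, and 3 without siControl replicate 2.

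In the adherens junction, the neighbouring junction that shares plakoglobin, 6 of 12 genes rose and 1 fell, with a median of 0.08. CDH3, P-cadherin of basal keratinocytes, rose by 0.24 (adjusted p = 6.5e-09), VCL, vinculin, by 0.22 (adjusted p = 3.8e-06) and NECTIN2 by 0.18 (adjusted p = 7.8e-03). CDH2, N-cadherin, rose by 1.47 (SE 0.17, adjusted p = 2.6e-08) from a low level, 70 and 52 counts in siControl against 192 and 159. CDH1, E-cadherin, changed by -0.06 (adjusted p = 0.051) and was not called. NECTIN3 was called lower on 18 and 38 counts against 8 and 6 (-2.01, SE 0.48, adjusted p = 1.0e-03), a call that was lost without siControl replicate 2, and DESeq2 gave this gene no adjusted p.

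PERP was also set beside 10 other p53 targets. Of these 1 rose and 3 fell, a median of 0.03. CDKN1A, the cell cycle inhibitor p21, rose by 0.27 (adjusted p = 3.0e-08), while TP53I3 fell by 0.82 (adjusted p = 2.8e-04), MDM2 by 0.41 (adjusted p = 4.3e-05) and ZMAT3 by 0.29 (adjusted p = 4.1e-03). The fall of PERP was smaller than the fitted falls of these 3 genes, and the differences between them were not tested.

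**Figure D5:**
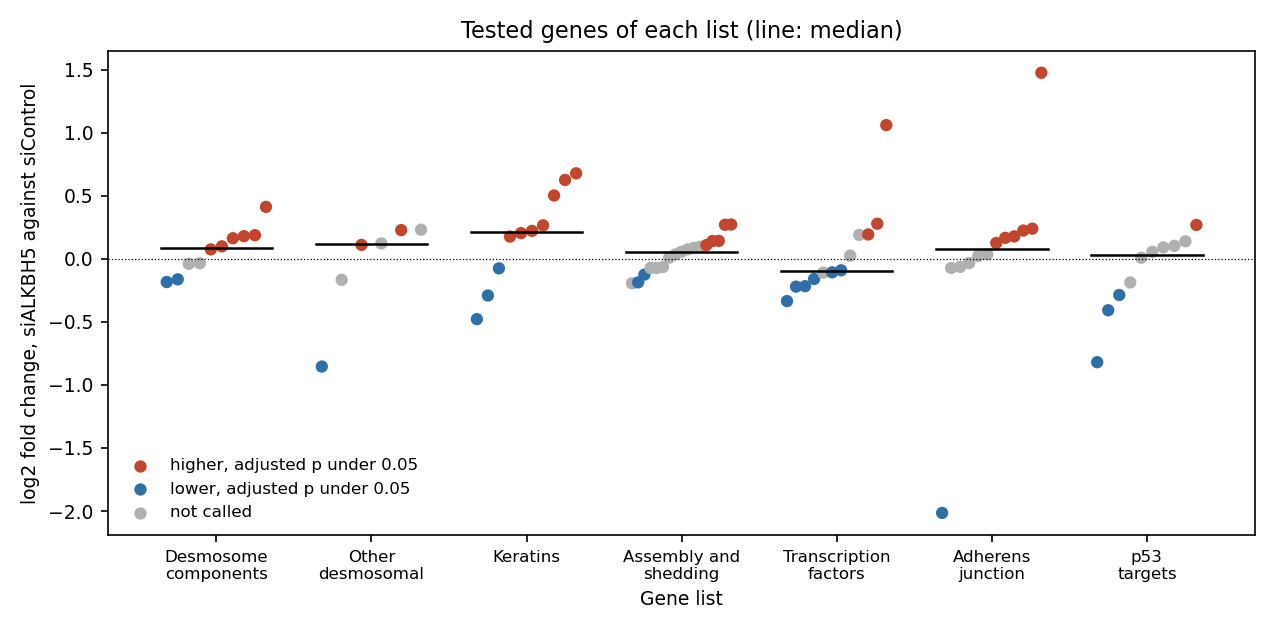
Log2 fold change of siALKBH5 against siControl for the tested genes of the 7 lists, ordered within each list, with a line at the list median. Red marks genes called higher and blue genes called lower at an adjusted p under 0.05. The 10 desmosome components lie between -0.18 and 0.41, and the keratins between -0.48 and 0.68.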

How the data were processed

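Poly-A RNA from 4 HaCaT libraries had been sequenced by the submitters, whose processing notes name CASAVA, HISAT2 2.0.5, featureCounts 1.5.0-p3, DESeq2 1.20.0 and hg38. The 2 deposited tables, 1 siControl and 1 siALKBH5 library each, hold raw counts per gene, which the authors had not normalised. The deposited FPKM were scaled by the authors within each table and were not used, and the authors' fold changes, p-values and adjusted p-values, which compare single libraries, were neither used nor printed. All 58735 gene IDs and coordinates were those of GENCODE 29. Gene lengths are as listed by the authors in bases.

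The quasi-likelihood test of edgeR 4.0.16 (R 4.3.3) was run on the counts over all genes, after filterByExpr and TMM scaling, with glmQLFit and glmQLFTest, no covariates and Benjamini-Hochberg adjustment. The methods of the study name DESeq2, which was an alternative (version 1.42.0). CPM uses TMM-scaled library sizes, and intervals are 95%. The scripts were tested on simulated data. With changes planted in genes drawn at random from all levels, the edgeR fit called 24 of 78 log2 changes of 0.25 in size. It called 51 of 79 changes of 0.5 and 29 of 38 changes of 1, with 7 false calls. Alternatives were other scalings and filters, a block for the replicate number, stricter thresholds and each library left out. Transcript length as the length and the block for the lists were added after the data were seen. In each list, up to 4 called genes per direction with the largest change and a mean of at least 1 CPM were named, beside all 10 components, the related genes and ALKBH5. CDH1, CTNNB1 and CTNND1 were named as homologues. Genes too low to test, SNAI2 and the called marker genes were named after their values were seen. The components, lists and motifs were chosen with earlier results of these data known. Shared stretches, coding identity (Biopython 1.88) and GGACT were examined after the data were seen.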

Additional observations from a re-analysis of the deposited data

How the results depend on the processing

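All directions of the 10 components held under the 11 alternative fits, and the calls of 7 of them (DSG2, DSC2, DSP, JUP, PKP1, PKP2 and PERP) held in every one. Since the groups did not overlap in CPM, leaving out 1 library could hardly reverse a direction. With scaling by library size only, 4 components were called lower and 5 higher. With the fold threshold of the study, 0 were called higher and 0 lower. For PKP3, DSG3 and DSC3 the changed calls stand beside their values. DESeq2 called 1 assembly gene, 2 transcription factors and 0 adherens genes lower, where NECTIN3 had no adjusted p. Leaving out each library in turn, the lists gave 1 to 3 higher among other desmosomal genes, and 1 to 2 lower among assembly genes, 2 to 4 lower among transcription factors and 0 to 1 lower among adherens genes. The cause of these changes was not tested.

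The replicate number was used as a block, which left 6 components higher and 2 lower and gave 2 adherens genes lower, with 3091 genes higher and 2831 lower of all. The deviations of same-numbered libraries correlated at 0.067, so the numbers were not taken to pair the libraries, and the labels give no shared culture. Over all genes, DESeq2 called 2054 higher and 1444 lower of 13260 with an adjusted p, and scaling by library size only called 2616 higher and 2894 lower of 15075. With 2 libraries per group each left-out fit leaves 1 library in an arm, which was assumed to vary like the other group.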
